A study of Mus musculus with 3 samples.

Results

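The cells described here were brain mural cells, the contractile and supporting cells wrapped around small blood vessels, found among hindbrain cells sorted for the reporter protein EYFP. They were chosen by a rule on their transcripts, read as unique molecular identifiers (UMIs, 1 per captured RNA molecule). A barcode, which tags the RNA of 1 droplet, was a member if it held at least 3000 UMIs, at most 20% of them mitochondrial, at least 2 UMIs of *Kcnj8*, at most 2 of the endothelial gene *Cldn5*, and at least 3 UMIs summed over *Ephx3*, *Olfr558* and *Cysltr2*. In all, 288 of the 8082 barcodes with enough UMIs and few mitochondrial UMIs were members. Of these, 284 came from the 1 *Gipr*EYFP library and 2 from each of the 2 *Glp1r*EYFP libraries. The rule used measured values, so the levels of its 5 genes are a description, and the *Gipr*EYFP library carries every comparison.

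In *Gipr*EYFP mice, *Gipr*-Cre (*Gipr* encodes the receptor for the gut hormone GIP) switches on EYFP, and in *Glp1r*EYFP mice *Glp1r*-Cre (*Glp1r* encodes the GLP-1 receptor) does so. Each library pooled tissue from 4 to 6 male mice aged 4 to 6 weeks, so animals cannot be told apart within it. No treatment is named in the labels. Because Cre recombination is permanent, EYFP marks cells with past as well as present Cre activity. Only 1 library held 10 or more members, so differences between members and other classes have no replicate check, and differences between genotypes are given as values of 1 library against 2 and were not tested. All intervals are 95% intervals that cover counting error only.

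The *Gipr*EYFP library held 62705038 UMIs, and the *Glp1r*EYFP libraries held 27277448 (replicate 1) and 13568994 (replicate 2). Barcodes kept for analysis numbered 4712, 2185 and 1185. No member barcode was shared between libraries, and at most 3 kept barcodes were. Members were compared with pericytes of the same library, which met the same limits on *Kcnj8* and *Cldn5* but had no UMI of the 3 summed genes (499 cells), and with smooth muscle cells, which had at least 20 *Acta2*, 10 *Tagln* and 3 *Myh11* UMIs, at most 1 *Kcnj8* and at most 2 *Cldn5* (398 cells). The 641 *Kcnj8* cells with a sum of 1 or 2 belonged to neither class. Median depth per cell was 5608 UMIs in members, 4645 in pericytes and 9000 in smooth muscle cells. Summed over the cells, the 3 classes held 1908590, 2703870 and 3750050 UMIs, against which the UMI numbers of single genes below are to be read.

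A group of 14 members stood apart. They held 22 to 286 UMIs of *Acta2*, the smooth muscle actin, together with 8 to 147 UMIs of *Vtn*, the most abundant pericyte transcript apart from *Malat1*. Their median depth was 14174.5 UMIs. Scrublet, which scores how much a barcode resembles a mixture of 2 cells, placed 7 of the 14 among the highest-scoring 3.78% of barcodes, against 13 of all 284 members and 4 of the 499 pericytes. The main results that rest on these 14 are given with and without them. Markers of other cells were also present. Oligodendrocyte RNA was concentrated in few barcodes, with 350 of the members' 384 *Mog* UMIs in 10 barcodes and 470 of the pericytes' 528 in 11.

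Mural cells range from arterial smooth muscle, rich in actin and myosin, to capillary pericytes, which carry the ATP-sensitive potassium channel made of *Kcnj8* (the pore) and *Abcc9* (its regulatory subunit) and sit in the basement membrane. They set vessel tone in response to transmitters, peptides and lipid mediators. *Cysltr2* (ENSMUSG00000033470) encodes a receptor for cysteinyl leukotrienes, *Ephx3* (ENSMUSG00000037577) an epoxide hydrolase that acts on lipid epoxides, and *Olfr558* (ENSMUSG00000070423) a G protein-coupled receptor of the olfactory family. Of the remaining markers given for these cells, *Enpep* encodes a glutamyl aminopeptidase that cleaves angiotensin II and *Ano1* a calcium-activated chloride channel.

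The upstream windows of the 3 summed genes are shown because the label of these cells names them together. The sequences are the 250 bases before each RefSeq gene start on GRCm38.p6, written 5′ to 3′ along the gene. *Ephx3* lies at chr17:32189471-32189720 (minus strand), *Olfr558* at chr7:102702073-102702322 (plus strand) and *Cysltr2* at chr14:73049115-73049364 (minus strand). Capitals mark the core TGGGAA bound by RBPJ, the Notch pathway's DNA-binding factor, searched on both strands.
Ephx3: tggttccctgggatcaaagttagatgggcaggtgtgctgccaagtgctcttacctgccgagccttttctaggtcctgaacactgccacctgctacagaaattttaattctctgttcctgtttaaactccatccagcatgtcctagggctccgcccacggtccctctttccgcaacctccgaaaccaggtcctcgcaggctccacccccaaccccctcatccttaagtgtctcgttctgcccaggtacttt
Olfr558: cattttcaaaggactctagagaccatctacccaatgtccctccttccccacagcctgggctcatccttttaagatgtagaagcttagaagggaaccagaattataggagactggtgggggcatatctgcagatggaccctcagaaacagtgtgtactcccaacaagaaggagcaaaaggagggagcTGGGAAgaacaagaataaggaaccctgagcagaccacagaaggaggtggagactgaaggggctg
Cysltr2: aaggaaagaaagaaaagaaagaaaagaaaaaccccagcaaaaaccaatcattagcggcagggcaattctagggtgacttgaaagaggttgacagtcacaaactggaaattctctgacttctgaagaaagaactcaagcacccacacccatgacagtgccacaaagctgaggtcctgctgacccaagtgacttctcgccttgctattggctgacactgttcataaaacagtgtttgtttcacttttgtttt
The only match was in *Olfr558*, 64 bases before the start. This core was found in 21.6% of 32851 mouse windows of the same length. None of the 3 windows held a CArG box, the element bound by serum response factor, which was present in 1.47% of all windows. A match is a description of letters, not of binding.

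Members formed the upper end of a graded distribution. Of the 1424 *Kcnj8* cells of the *Gipr*EYFP library, 499 had a sum of 0, 407 had 1, 234 had 2, 133 had 3, 69 had 4 and 82 had 5 or more. The share of *Kcnj8* cells that were members was 19.9% (Clopper-Pearson interval 17.9% to 22.1%). It was 14.4% among cells of 3000 to 5000 UMIs, 23.2% from 5000 to 8000, 27.8% from 8000 to 12000 and 55.3% from 12000 on, so membership moved with depth. Classes were set on all UMIs, so depth took part in who was a member. Thinning every cell of a class to 3000 UMIs evens the counts and not the membership, and the counts that held after it are given beside the main comparisons.

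**Figure D1:**
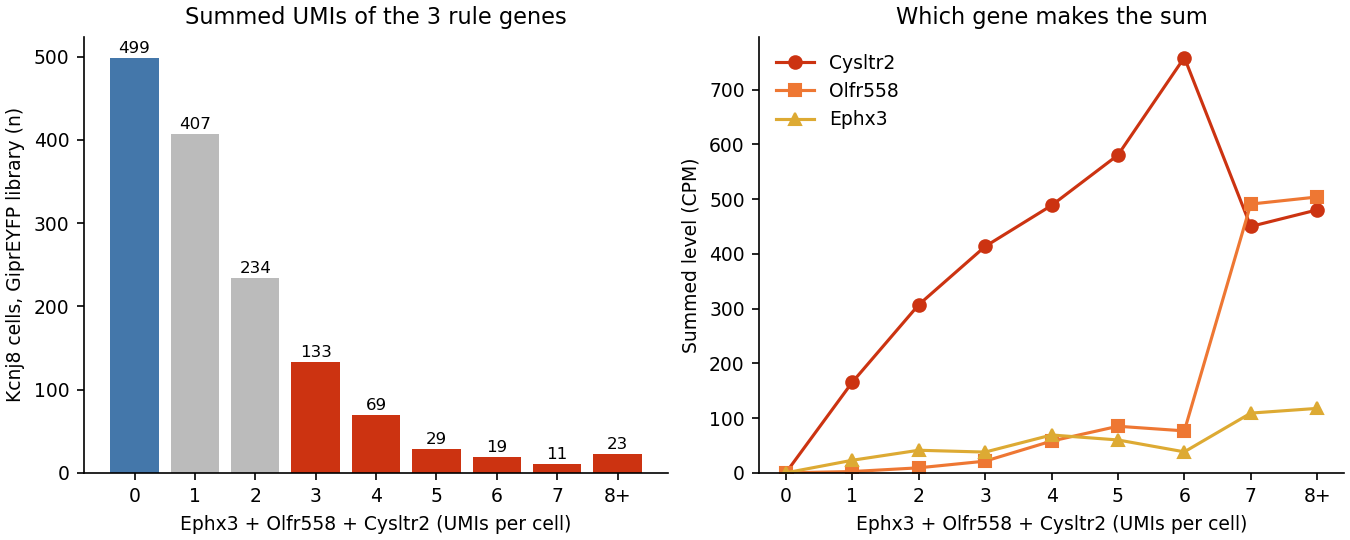
Left, number of *Kcnj8* cells (y axis) of the *Gipr*EYFP library by the summed UMIs of *Ephx3*, *Olfr558* and *Cysltr2* per cell (x axis), with pericytes in blue, cells of neither class in grey and members in red. Right, summed level of each gene in UMIs per 1000000 UMIs (CPM) for the same bins. Counts decline from 499 cells at 0 to 11 at 7 without a second peak before the open last bin of 23, and *Olfr558* reached 491 CPM only at a sum of 7.

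Cells just inside and just outside the threshold were described by a set of marker genes. Levels are given as CPM, the UMIs of a gene per 1000000 UMIs summed over all cells of a class, counted at the 3′ ends of transcripts and so not scaled by length. At sums of 3 and 2 they were 558 and 551 for *Enpep*, 229 and 242 for *Ano1*, 250 and 253 for *Itih5*, and 1790 and 1965 for *Abcc9*. *Vtn* was at 14701 and 17026 CPM, *Rgs5* at 8827 and 8981, *Notch3* at 503 and 529, *Crip1* at 421 and 348 and *Myh11* at 153 and 104. *Acta2*, at 216 and 80.2 CPM, and *Map3k7cl*, at 66.3 and 30.5, were more than 2-fold higher inside the threshold, with 1 *Acta2*-rich barcode inside and 2 outside. Without these barcodes *Acta2* was at 63.8 and 37.2 CPM and *Map3k7cl* at 46.9 and 27.1 CPM. *Apoe*, at 68.7 and 137 CPM, was close to 2-fold lower (69.8 and 111 CPM without these barcodes).

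*Cysltr2* supplied most of the sum. Members held 1245 UMIs of the 3 genes, of which 918 (73.7%) were *Cysltr2*, 214 (17.2%) *Olfr558* and 113 (9.08%) *Ephx3*. *Cysltr2* was found in 275 of the 284 members, with a median of 3 and a highest value of 10 UMIs per cell. *Ephx3* was found in 77 (27.1%) and *Olfr558* in 62 (21.8%). A total of 171 members (60.2%) had *Cysltr2* as their only gene of the 3, 49 had *Ephx3* with *Cysltr2*, 30 had *Olfr558* with *Cysltr2*, and 25 (8.80%) had all 3. The remaining 9 members lacked *Cysltr2*.

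The label names the 3 genes together, whereas at this depth most members held *Cysltr2* alone. These are genes of the rule, and their counts are a description. A gene missing from a cell can be a matter of depth. After thinning to 3000 UMIs per cell, the shares of members with a UMI were 83.5% for *Cysltr2*, 16.2% for *Olfr558* and 15.1% for *Ephx3*. *Olfr558* was also the most unevenly spread of the 3. Over the thinned *Kcnj8* cells its variance was 2.83 times its mean, against 1.29 for *Cysltr2* and 1.17 for *Ephx3*. Random sampling of 1 common level gives a value near 1. These cells include the 14 *Acta2*-rich members, which held 3 to 10 *Olfr558* UMIs each before thinning, and the ratio was not computed without them.

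Levels of the 3 genes in other classes of the library differed by gene. *Olfr558* was at 112 CPM (exact Poisson interval 97.6 to 128) in members and 380 CPM in smooth muscle cells, where 88.2% of cells had a UMI. *Cysltr2* was at 481 CPM (450 to 513) in members and 58.9 CPM in smooth muscle cells, and *Ephx3* at 59.2 (48.8 to 71.2) and 33.1 CPM. Oligodendrocytes, which should lack these genes and were deeper (median 23591.5 UMIs), had 1.94 CPM of *Cysltr2* in 2.41% of cells, 1.62 CPM of *Olfr558* in 1.88% and 0.538 CPM of *Ephx3* in 0.938%. Droplets with at most 100 UMIs held 41.4, 59.4 and 20.1 CPM of the 3 genes. Of the 398 smooth muscle cells, 270 (67.8%) also had a sum of at least 3, so the sum alone did not set members apart from smooth muscle.

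The markers outside the rule showed modest differences from pericytes. *Enpep* was at 531 CPM in members (found in 92.6% of cells), 503 in cells with a sum of 1 or 2, 403 in pericytes and 130 in smooth muscle cells. Members had 1.32 times the pericyte level (1.21 to 1.44) and 4.09 times the smooth muscle level. *Ano1* was at 277, 229, 183 and 206 CPM in the same order, and members had 1.51 times the pericyte level (1.33 to 1.71). Neither gene reached a 2-fold difference from pericytes, and both were present in all 3 mural classes.

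**Figure D2:**
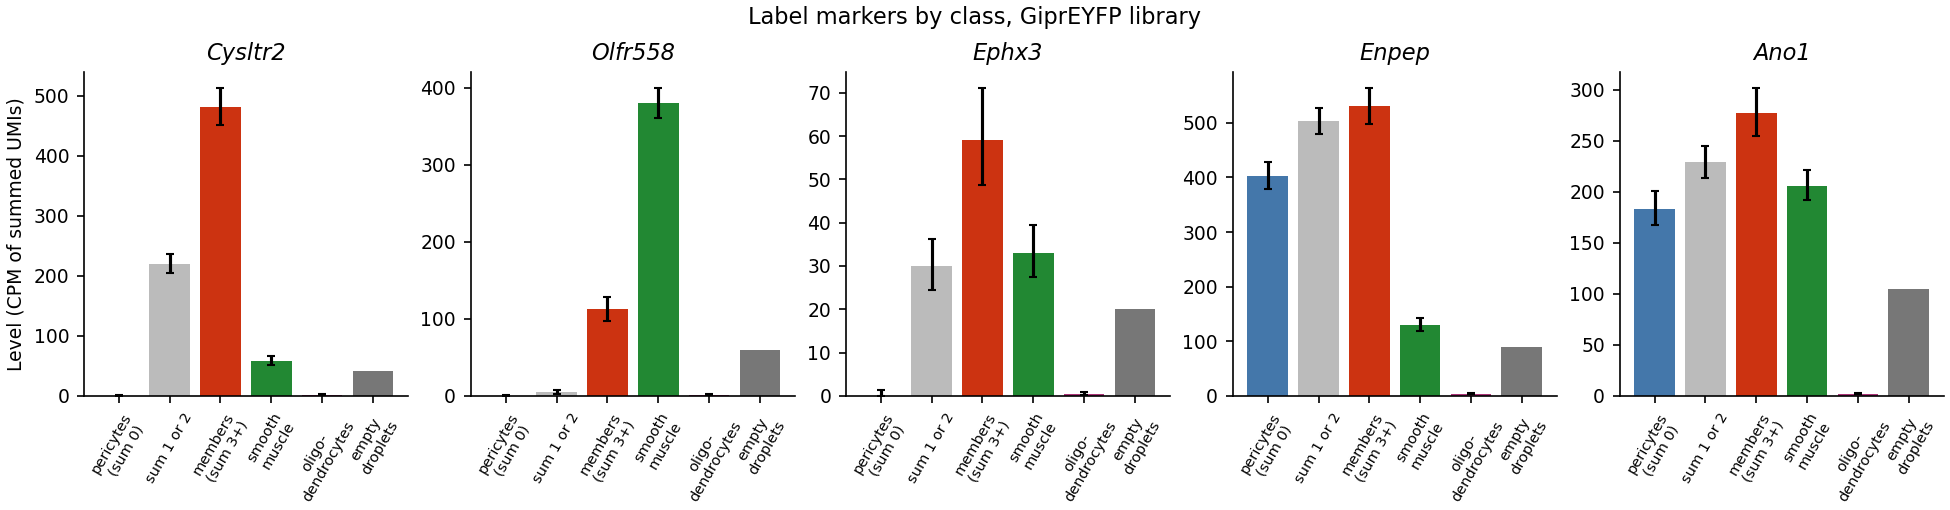
Level (y axis, CPM of summed UMIs) of the 5 marker genes in classes of the *Gipr*EYFP library (x axis), with exact Poisson 95% intervals on the bars of cell classes and none on the pooled droplets of at most 100 UMIs. *Cysltr2* was highest in members (481 CPM), *Olfr558* in smooth muscle cells (380 CPM), and *Enpep* and *Ano1* were well above 0 in all mural classes.

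The reporter was found in 98.6% of members, at 1010 CPM (965 to 1056), against 860 CPM in pericytes and 955 CPM in smooth muscle cells. It was 179 CPM in oligodendrocytes and 244 CPM in droplets of at most 100 UMIs. *Gipr* itself gave 8 UMIs in 8 members (4.19 CPM, 2.82% of cells) against 23 UMIs in pericytes (8.51 CPM), and 0 UMIs in smooth muscle cells. Oligodendrocytes, at a greater depth, had 1.62 CPM of *Gipr* in 3.75% of cells, and droplets of at most 100 UMIs held 12.9 CPM. The level in members thus lay above those of smooth muscle cells and oligodendrocytes and below that of the droplets. *Glp1r* gave 0 UMIs in 284 members. Taken as 3 counts of the total, a count of 0 allows up to 1.06% of cells with a UMI. The Clopper-Pearson interval allows up to 1.29%. Both limit detection and not expression.

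In the *Glp1r*EYFP libraries *Kcnj8* cells were rare: 30 of 2185 kept barcodes (1.37%) in replicate 1 and 6 of 1185 (0.506%) in replicate 2, against 1424 of 4712 (30.2%) in the *Gipr*EYFP library. Genotype and library cannot be told apart in this difference. The 2 members of replicate 1 held 6402 and 17066 UMIs. The first had 2 UMIs of *Olfr558*, 1 of *Cysltr2*, 39 of *Vtn* and 80 of *Acta2*. The second had 4 of *Olfr558*, 6 of *Cysltr2*, 70 of *Vtn* and 281 of *Acta2*. Their *Acta2* UMIs lay in the range of the 14 *Acta2*-rich members. In replicate 2 a barcode of 8653 UMIs had 1 *Ephx3*, 2 *Olfr558*, 45 *Vtn* and 149 *Acta2* UMIs, and a barcode of 9524 UMIs had 3 *Cysltr2*, 73 *Vtn* and 99 *Acta2* UMIs. High *Acta2* was shared with other barcodes of these libraries. Members were at 15383 CPM in replicate 1 and 13644 in replicate 2, the 16 and 3 pericytes there at 11822 and 4582 CPM, and droplets of at most 100 UMIs at 15339 and 16753 CPM, against 1602 CPM in the droplets of the *Gipr*EYFP library.

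Summed over the 3 genes, members were at 652 CPM in the *Gipr*EYFP library (617 to 690), 554 CPM in *Glp1r*EYFP replicate 1 (295 to 947) and 330 CPM in replicate 2 (121 to 718). The last 2 intervals are wide because each rests on 2 cells. Smooth muscle cells of the *Glp1r*EYFP libraries gave *Olfr558* in 34.8% and 52.7% of 1292 and 783 cells, at 76.4 and 125 CPM, below the 380 CPM of the *Gipr*EYFP smooth muscle cells. Droplets of at most 100 UMIs in those libraries held 86.1 and 74.9 CPM of *Olfr558*, so the level of replicate 1 was below that of its droplets, while oligodendrocytes there held 1.33 CPM in 1.15% of 349 cells and 0 UMIs in 190 cells. *Cysltr2* was at 6.65 and 11.6 CPM in these smooth muscle cells, against 58.9 CPM.

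**Figure D3:**
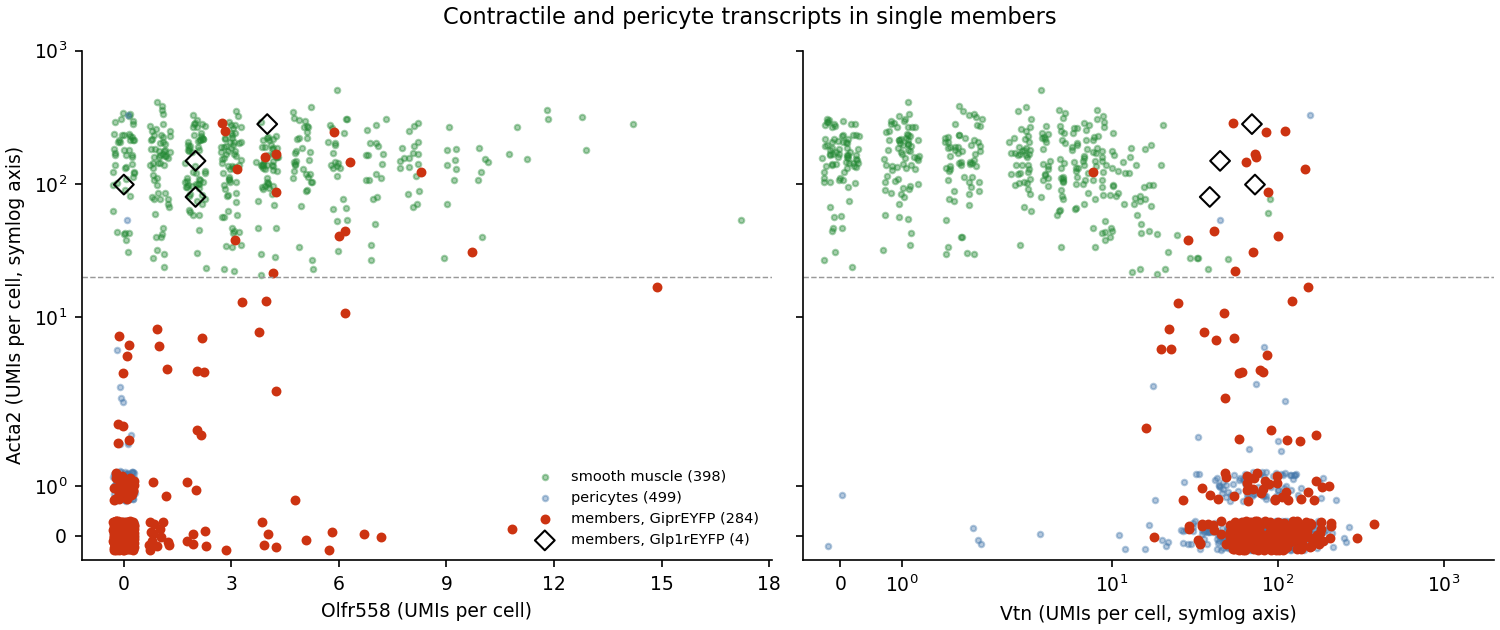
*Acta2* UMIs per cell (y axis, symlog: linear near 0, then logarithmic) against *Olfr558* (left, linear) and *Vtn* (right, symlog) UMIs per cell, for smooth muscle cells (green) and pericytes (blue) of the *Gipr*EYFP library and members of both genotypes, with small random offsets on all but the diamonds. The dashed line marks 20 *Acta2* UMIs: 14 red points and all 4 diamonds lie above it. The 14 all have at least 3 UMIs of *Olfr558*, a gene of the rule.

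Members and pericytes were close in pericyte markers. Of 22 pericyte markers compared, 0 differed by 2-fold or more in either direction, and their median log2 ratio was -0.01. Of all genes compared, 1.68% were that much higher and 2.02% that much lower, so the count of 0 does not set these markers apart. *Vtn* was at 13890 CPM in members and 16171 in pericytes, *Rgs5*, a regulator of G protein signalling, at 9261 and 7367, *Abcc9* at 1581 and 1819, and *Pdgfrb*, the receptor through which vessels recruit pericytes, at 1627 and 1702. *Atp13a5* (1596 and 1597 CPM) and *Higd1b* (1580 and 1592 CPM) were level. The most abundant transcripts were *Malat1*, *Vtn*, *Rgs5*, *Tmsb4x* and *mt-Co3* in members, at 107372, 13890, 9261, 5923 and 5466 CPM.

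Across all genes with a mean of at least 5 CPM over the 3 class sums, 175 of 10416 (1.68%) were at least 2-fold higher in members and 210 (2.02%) at least 2-fold lower, with a median log2 ratio of -0.02. Counts of 0 to 2 UMIs entered these ratios as 3, and the rule's genes, *Enpep* and *Ano1* were left out of the counts. With 1 library, these are counts past a fold and not calls of a test. Many of them rested on a few barcodes, in members or in pericytes. After thinning, 254 genes were higher and 284 lower, and these included 96 of the 175 and 84 of the 210. List counts of members against pericytes below are to be read against the shares of 1.68% and 2.02%.

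Of the 10 genes with the largest ratios toward members, 3 were on the list of contractile genes (*Sncg*, *Myocd* and *Pln*) and 1, *Htr1b*, on that of vasoactive receptors. *Map3k7cl* had 254 UMIs in 72 members against 41 UMIs in 28 pericytes, a ratio of 8.78 (6.29 to 12.5). *Asb2*, a ubiquitin ligase subunit of muscle, was 8.89 times higher (69 against 11 UMIs), *Gpr20*, an orphan receptor, 12.4 times (35 against 4), *Sncg*, gamma-synuclein, 12.2 times (86 against 10), *Htr1b*, a serotonin receptor, 10.3 times (29 against 4) and *Pln*, phospholamban, which restrains the calcium pump of the sarcoplasmic reticulum, 8.24 times (128 against 22). *Kcnab1*, a potassium channel subunit, gave 40 UMIs against 2, and *Smim5* 31 against 2. With the 0 entered as 3, *Susd5* (28 against 0 UMIs) had a ratio of 13.2. *Myocd*, the coactivator of smooth muscle genes (18 against 0), had a ratio of 8.50 in the same way.

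Several of these sat in the 14 *Acta2*-rich barcodes, which held 122 of the 128 *Pln* UMIs, 39 of 40 *Kcnab1*, 27 of 28 *Susd5*, 29 of 31 *Smim5*, 80 of 86 *Sncg* and 1771 of 1934 *Acta2* UMIs. Without barcodes of at least 20 *Acta2* UMIs in either class, 106 genes were at least 2-fold higher, of which 95 were among the 175. *Map3k7cl* was then 6.04 times higher (4.09 to 9.15), *Asb2* 4.08 times (1.90 to 9.48) and *Crip1* 2.23 times. *Map3k7cl*, *Asb2* and *Gpr20* had 127, 43 and 16 of their UMIs in the 14, so other members contributed to them.

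Among 23 contractile genes compared, 11 were at least 2-fold higher in members and 0 lower, with a median log2 ratio of 0.87. Over all genes the shares were 1.68% higher and 2.02% lower. *Acta2* was at 1013 CPM against 179 (5.66 times, 5.12 to 6.27), *Myh11*, smooth muscle myosin, at 455 against 88.4 (5.15 times), *Tagln* at 696 against 142, *Tpm2* at 353 against 138 and *Tpm1* at 1097 against 544. Much of this rested on *Acta2*-rich barcodes in either class. When barcodes with at least 20 *Acta2* UMIs were left out of both (14 members and 2 pericytes, which held 384 of the pericytes' 484 *Acta2* UMIs), 3 of 23 were higher (*Acta2*, *Myocd* and *Pln*) and 0 lower, with a median log2 ratio of 0.33. *Acta2* was then at 95.6 against 37.4 CPM (2.56 times, 1.98 to 3.31), *Myh11* at 141 against 75.5 (1.86 times, 1.54 to 2.26), *Tpm2* at 1.49 times and *Tpm1* at 1.42 times, and *Tagln* at 0.888 times (0.651 to 1.20). *Pln* had 6 UMIs against 1. In the 222 members without *Olfr558*, against the same 497 pericytes, 1 of 23 was higher (*Pln*) and 1 lower (*Tagln*), with a median of 0.11, and *Acta2* was at 39.6 against 37.4 CPM (1.06 times, 0.751 to 1.49). Of all 10434 genes compared there, 96 were higher and 262 lower.

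The lowest ratios belonged to genes of neurons and fibroblasts concentrated in few pericyte barcodes. *Chgb*, a secretory granule protein of neurons, had 2 UMIs in members against 415 in just 2 pericyte barcodes, and *Syt1* had 2 against 181 in 3 barcodes. *Snhg11* (9 against 463 UMIs), *Scg2* (2 against 109), *Rtn1* (5 against 180), *Stmn2* (5 against 151) and *Rph3a* (1 against 87) are also neuronal. *Col1a1* (3 against 155) and *Col15a1* (1 against 106) are collagens, and *Ccl19* (2 against 191 UMIs, in 13 pericytes) is a chemokine. Barcodes with at least 10 *Dcn* UMIs, a fibroblast gene, numbered 1 among members and 7 among pericytes.

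Of the neuron markers 5 of 6 compared were at least 2-fold lower and 0 higher, summing to 57.6 CPM in members and 263 in pericytes, and of the fibroblast-like cell markers 6 of 9 were lower and 0 higher (838 and 1582 CPM). The defining markers were near 0 in members, with 2 *Syt1* UMIs and 5 *Lum* UMIs, against 181 and 90 in pericytes. The part of such barcodes in the lower genes was measured by leaving out barcodes with at least 2 *Mog*, 2 *Syt1*, 10 *Dcn* or 2 *Lum* UMIs from all classes: 127 genes were then lower, of which 79 were among the 210.

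A few lower genes were spread over many cells. *Itih5*, which encodes a secreted hyaluronan-binding protein, had 462 UMIs in 164 members and 1529 UMIs in 331 pericytes, 0.428 times the pericyte level (0.385 to 0.475). Its level stepped down with the summed genes, from 565 CPM at a sum of 0 to 305 at 1, 253 at 2 and 250 at 3, so most of the step lay between 0 and 1. *Apoe*, the lipid carrier, had 189 and 713 UMIs (0.376 times, 0.318 to 0.441) and was at 264 CPM at a sum of 0, 180 at 1, 137 at 2 and 68.7 at 3. Without *Acta2*-rich barcodes *Apoe* was at 241, 119, 111 and 69.8 CPM at these sums, with the largest step between 0 and 1. Past the threshold neither gene kept to 1 direction: at sums of 4, 5, 6, 7 and 8 or more, *Apoe* was at 69.1, 60.04, 414, 177 and 98.9 CPM and *Itih5* at 259, 210, 169, 68.2 and 311 CPM, the last 4 of these bins holding 11 to 29 cells each. *Ahi1* had 78 and 241 UMIs (0.459 times, 0.351 to 0.594).

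Receptors and channels were counted as separate lists. Of 29 receptors and enzymes of vasoactive signals compared, *Htr1b* was higher and *Adra2a*, an adrenergic receptor (10 against 30 UMIs), lower. *Ednra*, the endothelin receptor of mural cells, was at 302 and 275 CPM, and *P2ry14* at 1113 and 1110 CPM. Of 34 ion channels and calcium-handling genes 5 were higher, against 1.68% of all genes, and 0 lower. *Trpc6*, a cation channel, had 29 UMIs against 6 (6.85 times, 2.79 to 20.2) and *Kcnk3* 45 against 16 (3.98 times), while *Kcna5* (15 against 9) and *Kcnma1* (9 against 6) had few UMIs and had 4 against 9 and 2 against 6 once *Acta2*-rich barcodes were left out of both classes. Without those barcodes 3 of 34 were higher, *Trpc6* and *Kcnk3* among them, and 0 lower. Without barcodes that held markers of other cell types, 7 of 34 were higher and 0 lower, against 233 higher and 127 lower of 10147 genes. *Kcna5* then had 14 UMIs against 2 and *Kcnma1* 8 against 0. This setting kept *Acta2*-rich barcodes that lacked such markers. Outside the *Acta2*-rich barcodes, members had only 4 *Kcna5* and 2 *Kcnma1* UMIs.

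Several genes that make or clear lipid mediators, the ligand side of *Cysltr2* and *Ephx3*, were sparse. *Alox5*, which starts leukotriene synthesis, gave 0 UMIs in members, pericytes and smooth muscle cells. Its partner *Alox5ap* gave 1, 1 and 0 UMIs. *Ltc4s*, which forms leukotriene C4, gave 0 UMIs in members and 10 in 9 pericytes. *Ggt5*, which converts leukotriene C4 to D4, was at 207 CPM in members and 225 in pericytes. *Cysltr1*, the other leukotriene receptor, had 14 UMIs in members and 23 in pericytes. Of 11 genes of this group compared 1 was higher, *Ptgds* (prostaglandin D synthase, 736 against 305 CPM), and 0 lower. *Ptgds* was lower in members, not higher, once barcodes with markers of other cell types were left out. *Ephx1* was at 117 and 104 CPM and *Ephx2* gave 2 and 6 UMIs.

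No gene of the angiotensin and peptidase group (9 compared) or of the Notch group (13 compared) differed by 2-fold. *Notch3*, the Notch receptor of mural cells, which is listed among the pericyte markers, was at 563 and 419 CPM, 1.34 times (1.23 to 1.46). *Notch1* was at 262 and 285 CPM.

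Among 40 growth factor and TGF-beta family genes 1 was higher (*Ntf3*, 12 against 7 UMIs) and 9 lower, and among 43 basement membrane and matrix genes 1 was higher (*Lama5*, a laminin chain, 31 against 11 UMIs) and 4 lower, each a collagen. *Lama2* (344 and 346 CPM) and *Lamb1* (143 and 159 CPM) were level. Several of the lower genes are fibroblast genes: *Pdgfra*, *Igf2* and *Col1a1* are also on the list of fibroblast-like cell markers, and 7 pericyte barcodes against 1 member barcode held at least 10 *Dcn* UMIs. Without barcodes that held markers of other cell types, 3 of 35 growth factor genes were higher and 3 lower, and 1 of 40 matrix genes was higher and 1 lower. Without *Acta2*-rich barcodes in either class *Ntf3* had 1 UMI against 5, and *Lama5* was 2.35 times higher (0.989 to 5.86). Of 32 transcription factors 1 was higher (*Ebf2*, 13 against 7 UMIs) and 0 lower. Without *Acta2*-rich barcodes in either class 0 of the 30 then compared were higher. With members lacking *Olfr558* as well, 1 of 32 was higher, again *Ebf2*. Of 16 transporters 0 were higher and 1, *Slc1a3*, lower, and 0 lower without barcodes that held markers of other cell types. The cytokine and adhesion group had 1 of 17 higher (*Cdh6*) and 4 lower, among them *Ccl19*. *Cdh6* was 1.77 times higher (0.973 to 3.25) without *Acta2*-rich barcodes in either class.

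Other cell types gave small counts. None of 10 oligodendrocyte markers differed by 2-fold, with sums of 6501 CPM in members and 6597 in pericytes. *Mbp*, which encodes a myelin protein, was at 335 and 315 CPM. The endothelial markers had 0 of 11 higher and 2 lower (716 and 820 CPM summed), and the astrocyte and ependymal markers 1 of 5 higher and 2 lower. *C1qb* (23 against 6 UMIs, in 5 members) was the only microglial gene compared, and no choroid plexus or blood marker reached the level compared. Of 20 immediate early and stress genes, which respond to tissue handling, 0 were higher and 2 lower (*Fosb* and *Atf3*).

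**Figure D4:**
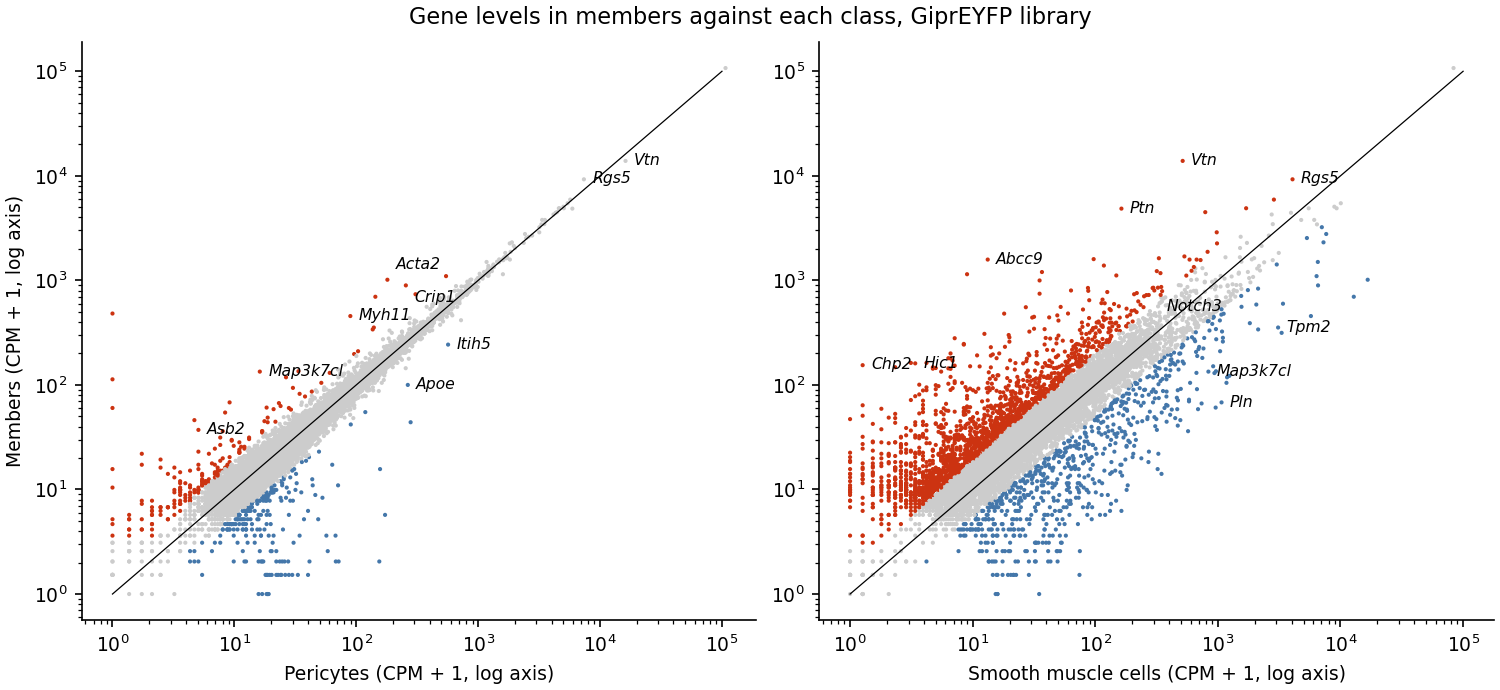
Level of each compared gene in members (y axis) against pericytes (left) and smooth muscle cells (right) on log axes of CPM plus 1, *Gipr*EYFP library, with the line of equal level. Red and blue points are at least 2-fold higher or lower in members, rule and marker genes included: points hug the line on the left (175 higher and 210 lower of 10416 after leaving those genes out) and scatter widely on the right (1750 and 666 of 10413).

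*Olfr558* divided the members. The division into subsets was chosen after seeing the data, and it separated 222 members with no *Olfr558* UMI, 18 with 1, 30 with at least 2 and fewer than 20 *Acta2* UMIs, and the 14 *Acta2*-rich barcodes, all of which had at least 3. Of the 47 *Kcnj8* cells with at least 2 *Olfr558* UMIs, 44 were members. *Olfr558* counts toward the sum of at least 3 that makes a member, so this number is nearly fixed by the rule. The rule also took part in the *Olfr558* UMIs of the 14 *Acta2*-rich members. The 30 cells had a median of 4 *Olfr558* UMIs (2 to 15), 2 *Cysltr2* (0 to 8), 67.5 *Vtn* (25 to 179) and 0 *Acta2* (0 to 17). Their median depth of 5689 UMIs was near the 5544 of the 222 cells. Scrublet's highest scores held 0 of the 30, and 0 of them had 2 or more *Mog* or *Pecam1* UMIs. Among the 222 cells these numbers were 6 for Scrublet, 9 for *Mog* and 18 for *Pecam1*, so few would be met in 30 cells. The limit on *Acta2* had already kept the *Acta2*-rich barcodes out of the 30.

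The 30 *Olfr558* cells kept pericyte transcripts. *Vtn* was at 12000 CPM against 15541 in the 222 cells without *Olfr558* and 515 in smooth muscle cells. *Pdgfrb* was at 1734 and 1733 CPM (ratio 1.00, 0.89 to 1.12), *Atp13a5* at 1881 and 1679, and *Rgs5* at 12746 and 8827. The channel subunit *Abcc9* was lower, at 1046 against 1852 CPM (0.565 times, 0.486 to 0.652). *Kcnj8*, a gene of the rule, was at 720 and 1323 CPM. Of 22 pericyte markers 1 differed by 2-fold, *Foxf2*, at 26.3 against 65.1 CPM.

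Of 5438 compared genes detected in 20% or more of the cells of either subset, 286 (5.26%) were at least 2-fold higher in the 30 cells and 277 (5.09%) lower. A gene could pass this filter through 1 subset alone, as 221 of the 286 and 200 of the 277 did, so the counts are partly set by the filter and support nothing by themselves. After thinning, 217 of the 286 and 62 of the 277 remained in the counts. Of 15 contractile genes compared 7 were higher and 0 lower, and 2 of the 7, *Acta2* and *Tagln*, passed through the 30 cells alone. *Acta2* was at 457 against 39.6 CPM (87 and 56 UMIs, 11.5 times, 8.15 to 16.4), *Myh11* at 478 against 90.6 (5.28 times, 3.99 to 6.96) and *Tpm1* at 1282 against 627. Smooth muscle cells held 6382 CPM of *Tpm1*. *Acta2* and *Myh11* took part in the definition of that class, and *Acta2* in that of the 30 cells, so their levels are not compared between the 2. Against pericytes, the 30 cells had 280 of 5264 genes (5.32%) at least 2-fold higher and 212 (4.03%) lower.

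The ratios of single genes in this comparison are descriptions. All of the 10 genes with the largest ratios, and *Pgf* and *Ccnd1*, had a UMI in under 20% of the 222 cells and passed the filter through the 30 cells alone, while *Crip1*, *Ntn4* and *Bcas3* passed in both subsets. *Map3k7cl* was found in 20 of the 30 cells and 29 of the 222, at 320 and 30.4 CPM (10.5 times, 7.01 to 15.9). Cells with a single *Olfr558* UMI lay between, with *Map3k7cl* in 9 of 18 cells at 226 CPM. *Asb2* was found in 13 of 30 and 7 of 222 cells (19.1 times, 7.61 to 54.1), *Nrip2*, a nuclear receptor-interacting protein, in 16 of 30 and 16 of 222 (8.99 times, 4.68 to 17.4), and *Crip1* was at 1524 against 323 CPM (4.71 times, 4.05 to 5.47). *Ntn4*, netrin 4, was at 252 against 61.6 CPM, *Pgf*, placental growth factor, at 168 against 38.2, *Bcas3* at 273 against 51.6 and the cyclin gene *Ccnd1* at 194 against 22.6. In smooth muscle cells *Bcas3* and *Ccnd1* were at 116 and 62.4 CPM, below the 30 cells. Among the remaining genes of the 10 largest ratios *Adamts16* had 6 UMIs against 3, *Fzd5* 6 against 4, *Atp1b1* 40 against 27, *Dhx58os* 19 against 14 and *Adamts15* 6 against 5.

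Of 25 channels and calcium-handling genes compared 7 were higher and 1 lower, but 5 of the 7 passed the filter through the 30 cells alone and the 1 through the 222 alone. *Trpc6*, in 7 of 30 and 10 of 222 cells, was 5.71 times higher (2.24 to 14.1), *Slc8a1*, the sodium-calcium exchanger, 4.46 times (1.72 to 10.9) and *Atp2a2*, the calcium pump of the sarcoplasmic reticulum, 2.09 times (1.75 to 2.49). *Kcnk3*, with 6 UMIs in the 30 cells, had an interval that reached below 1 (0.804 to 6.51). *Cacna1g*, a T-type calcium channel gene outside that list, had 9 UMIs in 6 of 30 cells against 2 UMIs in 2 of 222.

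Among receptors 2 of 10 were higher and 0 lower: *F2r*, a thrombin receptor (2.45 times, 1.62 to 3.62), and *Npy1r*, a neuropeptide Y receptor (2.30 times, 1.66 to 3.15). Growth factor genes had 4 of 16 higher (*Id3*, *Pdgfa*, *Id1* and *Fgf2*), 1 of them through the 30 cells alone, and 0 lower, with *Pdgfa* at 320 against 108 CPM. Of 8 Notch genes *Nrarp*, a feedback regulator of Notch signalling, was higher, at 179 against 72.2 CPM, and *Notch3* was at 820 against 532 CPM (1.54 times, 1.29 to 1.83). *Enpep* was at 898 against 501 CPM (1.79 times, 1.51 to 2.12) and *Ano1* at 368 against 250. Genes of myelin were among those farthest below, with *Mal* at 21.0 against 637 CPM and *Mbp* at 47.3 against 378 CPM, and the 222 cells included 9 barcodes with 2 or more *Mog* UMIs. The other genes among the 10 lowest ratios were *Cnp*, *Ptgds*, *Trf*, *Stmn1*, *Fez1*, *Apod*, *Pip4k2a* and *Agpat4*, of which *Ptgds*, *Trf* and *Fez1* were higher in the 30 cells, not lower, once barcodes with markers of other cell types were left out.

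**Figure D5:**
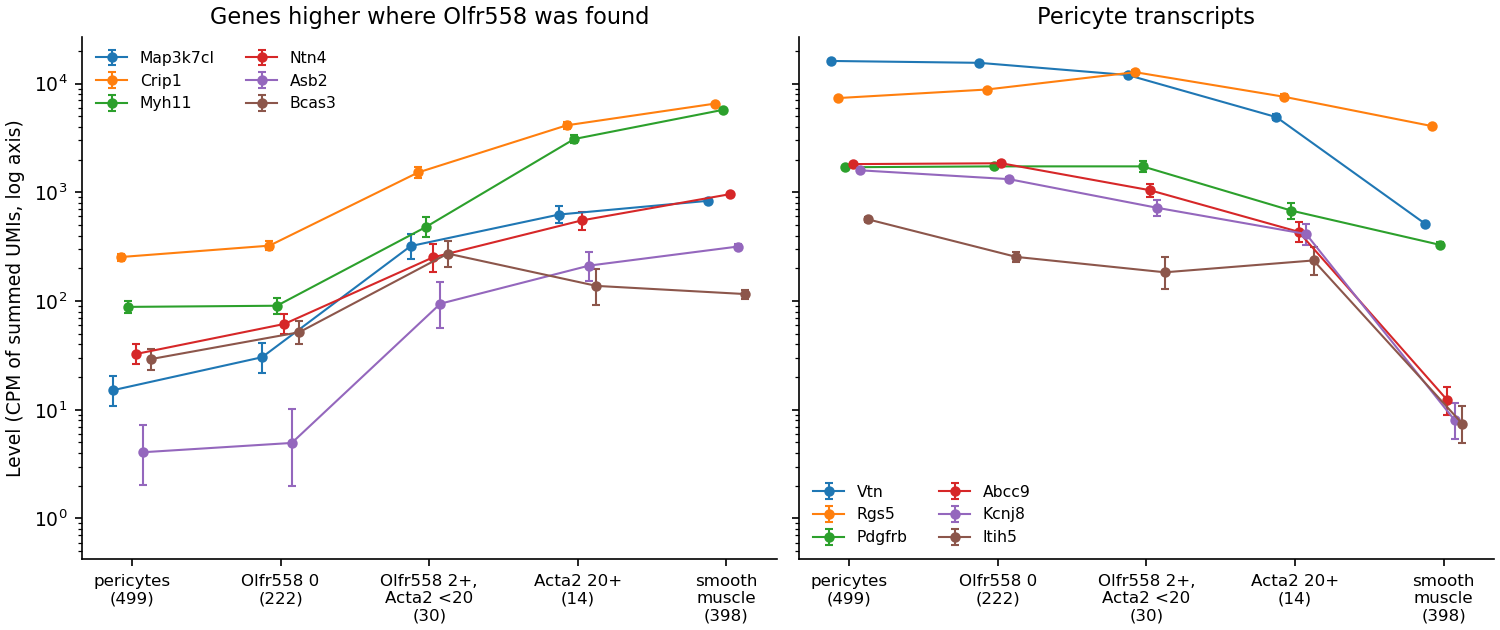
Level (y axis, log axis of CPM of summed UMIs) of 6 genes higher where *Olfr558* was found (left) and 6 pericyte transcripts (right), in pericytes, 3 subsets of members and smooth muscle cells (x axis, number of cells in brackets), with exact Poisson 95% intervals. *Map3k7cl* stepped from 30.4 CPM in members without *Olfr558* to 320 in the 30 *Olfr558* cells, where *Vtn* was still at 12000 CPM.

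In members without *Olfr558*, 88 of 10416 genes (0.845%) were at least 2-fold higher than in pericytes and 289 (2.77%) lower, over the genes compared for all members, and 0 of 22 pericyte markers differed. *Gpr20* (9 against 4 UMIs) and *Trpc6* (13 against 6) were among the higher genes, and *Itih5*, at 255 CPM against 565, among the lower ones (0.450 times). Of 20 immediate early and stress genes 8 were lower and 0 higher, among them *Fos*, at 9.20 against 161 CPM, whose 435 pericyte UMIs came from 28 of 499 cells. Without the 2 *Acta2*-rich pericyte barcodes 4 of the 20 were lower (*Fos*, *Fosb*, *Jun* and *Junb*). The *Acta2*-rich barcodes held 170 of the 198 *Fos* UMIs of all members.

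The 14 *Acta2*-rich barcodes carried both programs at intermediate levels. *Acta2* was at 8721 CPM, between 39.6 in members without *Olfr558* and 16669 in smooth muscle cells, and *Vtn* at 4920 CPM, between 15541 and 515. *Abcc9* was at 433 CPM, *Pdgfrb* at 680 and *Myh11* at 3093. Apart from *Kcnj8*, 12 of the 14 met the smooth muscle definition. Barcodes of 1 cell and of 2 cells cannot be told apart from these values.

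Against smooth muscle cells, members differed widely. Of 10413 genes, 1750 (16.8%) were at least 2-fold higher in members and 666 (6.4%) lower, and the median log2 ratio was 0.29. Under TMM scaling, which sets the middle of the ratios to no change, the counts were 1149 and 1063, so the share of higher genes among those past 2-fold went from 72.4% to 51.9%. Ratios below are on library totals, and every gene counted as lower was also lower under TMM. List counts of members against smooth muscle cells below are to be read against the shares of 16.8% and 6.4%. They were not redone under TMM. After thinning, 1388 of the 1750 and 593 of the 666 remained in the counts.

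Pericyte genes were higher, with 16 of 22 at least 2-fold higher, 1 lower (*Mcam*) and a median log2 ratio of 1.65. *Abcc9* was at 1581 CPM against 12.3, a ratio of 129 (96.4 to 176), *Vtn* 27.0 times higher (25.7 to 28.3), *Pdgfrb* 4.95 times and *Rgs5* 2.28 times. *Ggt1*, which cleaves glutathione conjugates, had 280 UMIs against 5 (110 times, 46.6 to 342), *Sfrp2*, a secreted modulator of Wnt signalling, 308 against 8, and *Hic1*, a transcriptional repressor, 305 against 9 (66.6 times, 34.6 to 147). *Chp2* (293 UMIs in 150 members against 1 UMI), *Slc6a13*, a GABA transporter (120 against 1), *Saa1* (95 against 1), *Gm30075* (111 against 3) and *Gm50130* (79 against 2) were nearly absent from smooth muscle cells. *Saa2* (88 against 0) had a ratio of 57.6 with the 0 entered as 3.

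Contractile genes were lower, with 18 of 20 at least 2-fold lower, 0 higher and a median log2 ratio of -2.83. *Lmod1*, leiomodin, was at 57.6 CPM against 688 (0.0838 times) and *Pln* at 67.1 against 1070. Among the genes lowest in members, *Fbxl22* had 25 UMIs against 1297, *Fhl5* 3 against 277, *Inhba*, an activin subunit, 1 against 275, *Slc16a11* 3 against 190, *Tcea3* 3 against 181, *Srl*, sarcalumenin, 3 against 178, *BC051019* 2 against 181, *Dmp1* 2 against 158 and *Tigd4* 3 against 151. *Atf3*, a stress gene, had 10 against 609, and 15 of 20 immediate early and stress genes were lower and 0 higher, with a median log2 ratio of -1.73.

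Receptors split between the classes, with 14 of 29 higher in members and 8 lower. Over all genes the shares were 16.8% higher and 6.4% lower, for these and for the channels below. *P2ry14*, a receptor for UDP-sugars, was 7.55 times higher, *Ednrb*, an endothelin receptor, 11.1 times (62 against 11 UMIs), and *Ptgfr*, a prostaglandin F receptor, had 29 UMIs against 1. *Npy1r* was at 162 against 426 CPM (0.380 times), *Ramp1*, a partner of the CGRP receptor, had 12 against 500 UMIs, and *Htr1b* 29 against 253. Channels had 7 of 34 higher and 10 lower: *Itpr2*, an inositol trisphosphate receptor, was 13.3 times higher, and *Ryr2* (2 against 117 UMIs), *Kcna5* and *Kcnma1* were lower.

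Transporters leaned toward members, with 11 of 16 higher, 0 lower and a median log2 ratio of 2.40. *Slc22a8*, an organic anion transporter, had 532 UMIs against 23 (45.4 times, 30.0 to 72.3). Of the lipid mediator genes 5 of 11 were higher, among them *Ptges*, prostaglandin E synthase (30 against 3 UMIs), and *Ggt5* (3.74 times), and 1 lower. Of Notch genes 4 of 13 were higher, with *Notch1* 3.21 times, and 1 was lower, *Jag1* (0.462 times), a Notch ligand.

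Growth factor genes had 13 of 40 higher, with *Ptn*, pleiotrophin, at 4857 against 162 CPM, and 17 lower, with *Angpt1* at 33 against 504 UMIs. Matrix genes had 16 of 43 higher, with *Lamb1* 26.8 times and *Lama2* 11.2 times, and 10 lower, with *Eln*, elastin, at 10 against 187 UMIs. Transcription factors had 7 of 32 higher and 7 lower, beside 16.8% and 6.4% of all genes. *Lef1* was at 61 against 9 UMIs and *Foxc2* at 3 against 117. Of angiotensin and peptidase genes 2 of 9 were higher and 1 lower. The cytokine group had 9 of 17 higher and 4 lower.

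Markers of other cells also moved with this contrast. All 10 oligodendrocyte markers, 9 of 11 endothelial, 7 of 9 fibroblast-like, 0 of 6 neuron and 1 of 5 astrocyte markers were at least 2-fold higher in members. Among the astrocyte markers 1 was lower (*Aqp4*), and 0 were lower in the other lists named here. *Mbp* was at 335 CPM against 148, with 3263 CPM in droplets of at most 100 UMIs, and it was lower in members, not higher, once barcodes that scored highest in Scrublet were removed. The defining endothelial gene *Pecam1* reached 2 UMIs in 20 of 284 members.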

How the data were processed

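The authors sorted EYFP-positive hindbrain cells, made 10x 3′ libraries and deposited, for each of the 3 libraries, a matrix of raw UMI counts over 32533 genes for every barcode, neither normalized nor filtered. The matrix headers name Cell Ranger 4, whereas the submitters' processing notes name Cell Ranger 6.1.2 and GRCm39. Members, gene lists and comparison classes were chosen with earlier results of these data known.

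Counts were summed over the cells of each class of 1 library and given as CPM (floor of 3 UMIs: 1.57 CPM in members). Levels carry exact Poisson intervals, shares Clopper-Pearson intervals and ratios exact conditional intervals given both counts. Named genes were the markers, the genes of the lists, the 5 most abundant, and for each contrast the 10 largest ratios each way at 2-fold or more. Genes such as *Itih5*, *Apoe*, *Ahi1*, *Crip1*, *Ntn4* and *Pgf* were added after their values were seen, as the 12 largest ratios among genes with a UMI in 20% of the cells of the higher class. For the *Olfr558* subsets against pericytes only some of the 10 are named. Certain genes are not reported here, although list counts include them. A planned edgeR quasi-likelihood test was set to need 2 libraries with 10 members and was not run. Scaling alternatives used TMM factors from edgeR 4.0.16 and median-of-ratios size factors from DESeq2 1.42.0. Doublets were scored with Scrublet in scanpy 1.11.5 and were not removed. The alternatives also varied the UMI minimum, the gates, the low-level filter and thinning to 3000 UMIs. Scripts ran under Python 3.11.15 and R 4.3.3 and were tested on simulated data.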

Additional observations from a re-analysis of the deposited data

How the results depend on the processing

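The number of members in the *Gipr*EYFP library went from 284 to 182 with at least 5000 UMIs, 82 with a sum of at least 5 and 105 with at least 2 of the 3 genes. In the *Glp1r*EYFP libraries a sum of at least 5 left 1 member in replicate 1 and 0 in replicate 2, and replicate 2 kept 1 with *Cldn5* at 0 and 1 with at least 2 of the 3 genes. Against pericytes, the 175 higher and 210 lower genes became 384 and 621 with no filter on low genes, 83 and 24 at a mean of at least 20 CPM, and 480 and 508 with a sum of at least 5. The lower genes became 493 without the highest Scrublet scores, 419 with at least 5000 UMIs and 111 with pericytes of sum 0 to 2. Under alternatives chosen after seeing the data, they were 102 and 67 with a UMI in 5% of cells, 109 higher without the *Acta2*-rich members, 106 higher without *Acta2*-rich barcodes in either class, 93 higher with members lacking *Olfr558* only (genes filtered anew on that class), 96 higher with both of these choices, and 127 lower without markers of other cell types. Against smooth muscle cells, the counts were 1133 and 1078 with median-of-ratios size factors, 1149 and 1063 with TMM, and 964 and 402 at 20 CPM. The *Olfr558* subset had 1518 genes higher and 505 lower with the filter at a mean of 5 CPM, where counts of 0 to 2 UMIs raised to 3 weigh most in the 30 cells. Thinning to 3000 UMIs gave 446 genes higher in the *Olfr558* subset, shares of members with a UMI of 15.1% (*Ephx3*), 16.2% (*Olfr558*), 83.5% (*Cysltr2*), 77.1% (*Enpep*) and 52.5% (*Ano1*), and 746 CPM for the 3 summed genes in the *Gipr*EYFP library. The causes were not tested.

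Of 1894 log2 ratios of named genes under these alternatives, 40 changed sign. Without the *Acta2*-rich members, but with the 2 *Acta2*-rich pericyte barcodes kept, the ratios to pericytes were -0.91 for *Acta2*, -0.34 for *Cnn1*, -0.51 for *Kcna5*, -0.34 for *Kcnma1*, -0.56 for *Ntf3*, -0.79 for *Pdlim3*, -1.21 for *Pln*, -0.072 for *Sncg* and -1.82 for *Tagln*. With such barcodes left out of both classes the reversed ratios were -0.52 for *Kcna5*, -0.35 for *Kcnma1*, -0.087 for *Ntf3* and -0.17 for *Tagln*. Those of *Acta2*, *Pdlim3*, *Pln* and *Sncg* kept their sign, and *Cnn1* was not among the reversed ratios. With members lacking *Olfr558* only they were -2.18 for *Acta2*, -0.064 for *Cnn1* and for *Kcnma1*, -0.65 for *Kcna5*, -0.23 for *Lmod1*, -0.29 for *Ntf3*, -0.94 for *Pdlim3* and for *Pln*, -0.80 for *Sncg* and -2.75 for *Tagln*. With members lacking *Olfr558* and no *Acta2*-rich barcodes in either class they were -0.66 for *Kcna5*, -0.079 for *Kcnma1* and for *Sncg* and -1.10 for *Tagln*. Without the highest Scrublet scores they were -0.30 for *Cnn1*, -0.11 for *Ntf3* and -1.47 for *Ptgds*, and against smooth muscle cells *Mal* was at -1.08 and *Mbp* at -0.43. *Ntf3* was at -0.041 with *Cldn5* at 0, and *Ptgds* at -0.42 without markers of other cell types. In the *Olfr558* subset against members without it, leaving out markers of other cell types gave 1.37 for *Fez1*, 0.28 for *Ptgds* and 0.52 for *Trf*, and leaving out the highest Scrublet scores gave 1.39, 0.23 and 0.49.

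No paired analysis was possible because the genotypes share only 1 replicate number. The plan asked for at least 2 libraries with 10 members and the *Glp1r*EYFP libraries held 2 members each, so the edgeR and DESeq2 tests, the fits with and without a library block, the fit of 2 classes and the fits leaving out each library were not run. Genes with few UMIs in members, such as *Ntf3* and *Kcnma1*, are limited by depth.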

Other observations

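The limits of the rule passed over barcodes with mural transcripts, which are described here without a comparison. In the *Gipr*EYFP library 152 barcodes failed only the *Cldn5* limit. Their median depth was 13758 UMIs, and they held 2060 CPM of *Cldn5* and 605 CPM of *Pecam1*, both endothelial, beside 7289 CPM of *Vtn*, 651 CPM of *Kcnj8* and 217 CPM of *Cysltr2*. A further 339 barcodes failed only the *Kcnj8* minimum, and 270 of these (79.6%) were in the smooth muscle class. Among *Kcnj8* cells 22 had at least 20 *Acta2* UMIs, of which 14 were members.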
